A study of Mus musculus with 96 samples.

Results

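The constitutive proteasome subunits are the 34 genes Psma1 to Psma7, Psmb1 to Psmb7, Psmc1 to Psmc6 and Psmd1 to Psmd14, chosen by symbol alone, and all 34 of them were found among the 55376 genes counted in mouse ventricle. RNA-seq with poly-A selection was done on 96 libraries in 4 groups of 24: tamoxifen-treated females, tamoxifen-treated males, vehicle-treated females and vehicle-treated males. Each group held 2 libraries at each of 12 circadian times (ct), every 4 h between ct 18 and ct 62. The genotype given for all 4 groups is iCSBmal1 KO, an inducible knockout of the clock gene Bmal1 that is specific to cardiomyocytes, so the vehicle mice carry the allele too and differ from the tamoxifen mice in the drug. No tamoxifen-treated mice without the allele were analysed here, so the drug and the loss of Bmal1 cannot be told apart, and other cells of the ventricle keep the gene. The sources used here give no age, strain, Cre driver or dose. Nor do the labels say that libraries are separate animals, so p-values measure the spread between libraries. The stated aim was to learn what BMAL1 contributes to sex differences in the heart's circadian transcriptome.

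The proteasome is the barrel-shaped protease that degrades ubiquitin-tagged proteins. Its 20S core has outer alpha rings that form the gate and inner beta rings that hold the cutting sites. The 19S cap sits on the core: its base unfolds and feeds in the substrate with a ring of ATPases, and its lid removes the ubiquitin chains. Heart muscle relies on it to turn over contractile and signalling proteins, and in mammalian cells the transcription factor NRF1 (gene Nfe2l1) raises the subunit genes together when proteasome activity is short. BMAL1 binds E-boxes with its partner CLOCK.

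Total counts per library lay between 8944955 and 20596194, with medians of 15526020 in tamoxifen females, 15867852 in tamoxifen males, 16446380 in vehicle females and 12956954 in vehicle males. All 34 genes passed the filter on low counts, and the lowest raw count of any of them in any library was 151, of Psmd10. Cardiomyocyte markers summed to medians of 36090, 35040, 35370 and 35330 CPM (counts relative to the library's total) in the same order of groups. This muscle program was high in every group. Marker sums, Myl7 and the Xist, Ddx3y, Per2 and single-library Arntl values below are in this plain CPM. Other levels are CPM after edgeR's TMM scaling. A set of 10 vehicle male libraries stood apart from the rest of the series: between 0.123% and 0.189% of their counts fell in TEC genes, an annotation class of unspliced transcripts awaiting experimental evidence, against at most 0.111% in any library of the other 3 groups. A tamoxifen female library at ct 54 had 0.271 CPM of Xist, against 194 to 410 CPM in the other tamoxifen females. It also had 11.3 CPM of the Y-linked gene Ddx3y, against at most 0.117 CPM in the others. A tamoxifen male library at ct 54 had 1.31 CPM of Arntl (the symbol of Bmal1), against 2.96 to 31.7 CPM in the other tamoxifen males. Its level of the clock gene Per2 was 87.2 CPM, against at most 64.8 CPM in those males. Leaving out both libraries left 29 members called in the female and 22 in the male tamoxifen comparison, close to the 29 and 23 given below with them. Over all libraries Arntl averaged 17.6 ± 7.68 CPM in tamoxifen females against 20.5 ± 18.5 CPM in vehicle females, and 15.1 ± 8.35 CPM in tamoxifen males against 16.3 ± 13.9 CPM in vehicle males (SD, n = 24 each). The ranges of Arntl overlapped, with a smaller spread in tamoxifen hearts. Counts per gene include any exons that a deletion leaves in place and RNA of other cell types, so they are a weak check of the knockout.

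Of the 34 genes, 28 had a promoter in RefSeq (GRCm38.p6), taken as 250 bases before to 50 after the annotated start. The letters TGACNNNGC, the core of the antioxidant response element that NRF1 and related factors recognise, were searched on both strands and stood in 5 of the 28 members (17.9%), Psmb5, Psmb6, Psmd9, Psmd12 and Psmc6, against 13.99% of 27025 genes. The E-box CACGTG stood in 2 members (7.14%), Psma4 and Psmd9, against 8.09% of genes. CCAAT, in either direction, stood in 11 members (39.3%), against 41.1% of genes. The shares of members lay near those of all genes for each of these motifs, and no match of the response element overlapped an E-box. The promoters of Psmb5 and Psmb6 are shown because the catalytic subunits take part in most of the differences below; capitals mark TGACNNNGC, which starts at position -47 from the start of Psmb5 (chr14:54617946-54618245, minus strand) and at -9 from that of Psmb6 (chr11:70525107-70525406, plus strand).
Psmb5: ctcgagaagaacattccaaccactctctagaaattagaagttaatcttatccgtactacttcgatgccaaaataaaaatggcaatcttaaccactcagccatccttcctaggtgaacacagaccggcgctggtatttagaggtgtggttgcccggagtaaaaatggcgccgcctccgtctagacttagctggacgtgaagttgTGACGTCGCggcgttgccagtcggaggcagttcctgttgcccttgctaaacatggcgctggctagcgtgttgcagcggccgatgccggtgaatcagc
Psmb6: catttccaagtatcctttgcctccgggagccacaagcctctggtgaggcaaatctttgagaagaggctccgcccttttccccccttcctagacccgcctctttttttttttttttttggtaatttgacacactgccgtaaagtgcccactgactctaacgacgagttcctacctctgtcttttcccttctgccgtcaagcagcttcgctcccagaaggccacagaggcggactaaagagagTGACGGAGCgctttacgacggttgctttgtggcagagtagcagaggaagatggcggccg
The promoters with an E-box are shown because BMAL1 is the gene that was targeted; capitals mark CACGTG, at position -140 in Psma4 (chr9:54950609-54950908, plus strand) and at -51 in Psmd9 (chr5:123227940-123228239, plus strand).
Psma4: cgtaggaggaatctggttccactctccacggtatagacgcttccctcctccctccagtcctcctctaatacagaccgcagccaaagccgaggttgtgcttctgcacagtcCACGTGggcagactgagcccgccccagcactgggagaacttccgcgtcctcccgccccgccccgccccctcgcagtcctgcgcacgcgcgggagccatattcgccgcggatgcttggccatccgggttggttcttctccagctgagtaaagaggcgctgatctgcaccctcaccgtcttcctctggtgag
Psmd9: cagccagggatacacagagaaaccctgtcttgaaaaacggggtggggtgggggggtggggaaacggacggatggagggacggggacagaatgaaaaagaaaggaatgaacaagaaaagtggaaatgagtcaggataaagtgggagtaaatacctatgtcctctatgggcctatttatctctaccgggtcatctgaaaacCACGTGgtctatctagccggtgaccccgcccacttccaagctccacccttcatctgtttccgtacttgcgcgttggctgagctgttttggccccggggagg
A match of letters is a description of the sequence and not a binding site.

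The first comparison asked how the mean level over the day differed between tamoxifen and vehicle hearts of females. All 34 log2 differences were above 0, and 29 genes passed an adjusted p of 0.05 in edgeR's quasi-likelihood test (here "called"), all 29 higher in tamoxifen hearts, where 27.5% of the 15629 genes tested were called and 15.2% were called higher. The differences were small. Their median was 0.15 on the log2 scale, against 0.0056 over all genes tested, and their range was 0.0045 to 0.34. In bulk tissue, fewer cells of a type and less RNA per cell cannot be told apart.

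In the core, all 7 alpha subunits were called higher in tamoxifen females, as were the 3 catalytic beta subunits and 3 of the 4 other beta subunits, the exception being Psmb2 with a difference of 0.06. Psma5, of the alpha ring, had 56.1 CPM at lowest, 61.6 at the median and 72.3 at highest in tamoxifen females, against 44.2, 49.98 and 70.5 in vehicle females, a log2 difference of 0.23 ± 0.04 (SE; adjusted p = 1.18e-05, edgeR). All 24 tamoxifen libraries lay above the vehicle median, and the ranges overlapped. Psma3 and Psma6 were higher by 0.23 ± 0.04 (adjusted p = 1.43e-06) and 0.22 ± 0.05 (adjusted p = 1.68e-04). Transcripts at least 95% identical to Psma3 over 300 bases or more, from other genes, held 44.6% as many counts as Psma3 itself, and those of Psma5 16.8%, so the split of reads between the gene and its copies is uncertain for these members. Among the structural beta subunits, Psmb1 ranged from 119 to 158 CPM with a median of 135 in tamoxifen females, against 94.8 to 183 with a median of 111 in vehicle females (0.25 ± 0.04, adjusted p = 3.35e-06). The single highest value of Psmb1 was thus that of a vehicle library, although the vehicle median was lower. Psmb3 was higher by 0.24 ± 0.05 (adjusted p = 4.84e-05).

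The catalytic subunits are Psmb5, the chymotrypsin-like site, Psmb6, the caspase-like site, and Psmb7, the trypsin-like site. Psmb5 (chr14:54614119-54618022, minus strand) had 32.2 CPM at lowest, 40.5 at the median and 52.3 at highest in tamoxifen females, against 26.8, 33.1 and 63.4 in vehicle females, a log2 difference of 0.20 ± 0.06 (adjusted p = 0.00944). Psmb6 (chr11:70525367-70527858, plus strand) had 92.03, 109 and 128 CPM in tamoxifen females, against 79.7, 93.5 and 159 in vehicle females, a difference of 0.16 ± 0.05 (adjusted p = 0.00679). Psmb7 had 192, 222 and 271 CPM in tamoxifen females, against 152, 184 and 293 in vehicle females, a difference of 0.24 ± 0.05 (adjusted p = 1.24e-04). For each of the 3, the vehicle range enclosed the tamoxifen range, since some vehicle libraries were high and most were low. Gm3375, a gene 98.9% identical to Psmb5 over 796 bases, held 5.35% as many counts as Psmb5. Mir686, on the same strand inside Psmb5, overlaps 12.1% of its exon length, and the opposite-strand gene Nek6 overlaps 11.8% of that of Psmb7; the sources used here do not say whether strand was used in counting.

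In the cap, 5 of 6 ATPases, 1 of 3 other base subunits and 7 of 8 lid subunits were called higher in tamoxifen females, and none lower. The lid subunit Psmd8 (chr7:29174188-29180701, minus strand) had the largest difference of the 34: 95.3 CPM at lowest, 118 at the median and 141 at highest in tamoxifen females, against 79.9, 90.4 and 124 in vehicle females (0.34 ± 0.04, 1.27-fold, adjusted p = 1.88e-11). Its tamoxifen mean was above its vehicle mean at 12 of 12 times, and 6 of 24 tamoxifen libraries were above the highest vehicle library. Psmd14 (chr2:61711694-61800376, plus strand), the deubiquitinase of the lid, had 55.6, 66.4 and 74.0 CPM in tamoxifen females, against 44.7, 56.4 and 67.2 in vehicle females (0.25 ± 0.05, adjusted p = 8.63e-06). It too was higher at 12 of 12 times, and 11 of 24 tamoxifen libraries were above every vehicle library. Psmd1, the large scaffold of the base, had 156, 177 and 192 CPM in tamoxifen females, against 112, 157 and 174 in vehicle females (0.19 ± 0.07, adjusted p = 0.0204), with 15 of 24 tamoxifen libraries above the vehicle range. The opposite-strand gene Sirt3, which overlaps 10.1% of the exon length of the lid subunit Psmd13, held 66.3% as many counts as Psmd13, one of the members called. The members not called were Psmc3, Psmd2, Psmd4, Psmd7 and Psmb2, with differences between 0.0045 and 0.08. Psmd4, a ubiquitin receptor, was the closest to 0.

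The 3 chaperones that assemble the base and leave the finished particle, Psmd5, Psmd9 and Psmd10, were also called higher in tamoxifen females: Psmd5 by 0.13 ± 0.04 (adjusted p = 0.00477), Psmd9 by 0.10 ± 0.04 (adjusted p = 0.0299) and Psmd10 by 0.16 ± 0.05 (adjusted p = 0.0077). Per kilobase of the longest transcript, they were the 3 lowest of the 34 genes in all 4 groups. In tamoxifen females their levels were 6.54 ± 0.35, 7.86 ± 0.64 and 12.5 ± 1.14 CPM per kb, and the next lowest gene, Psma3, had 33.2 CPM per kb. Psma6 was the highest at 149 ± 9.41 CPM per kb in tamoxifen females (SD, n = 24 each), and in vehicle females Psmc3 and Psma6, at 129 ± 16.3 and 129 ± 20.5 CPM per kb, did not differ beyond their spread. The opposite-strand lincRNA Gm26745 overlaps 25.5% of the exon length of Psmd9.

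**Figure D1:**
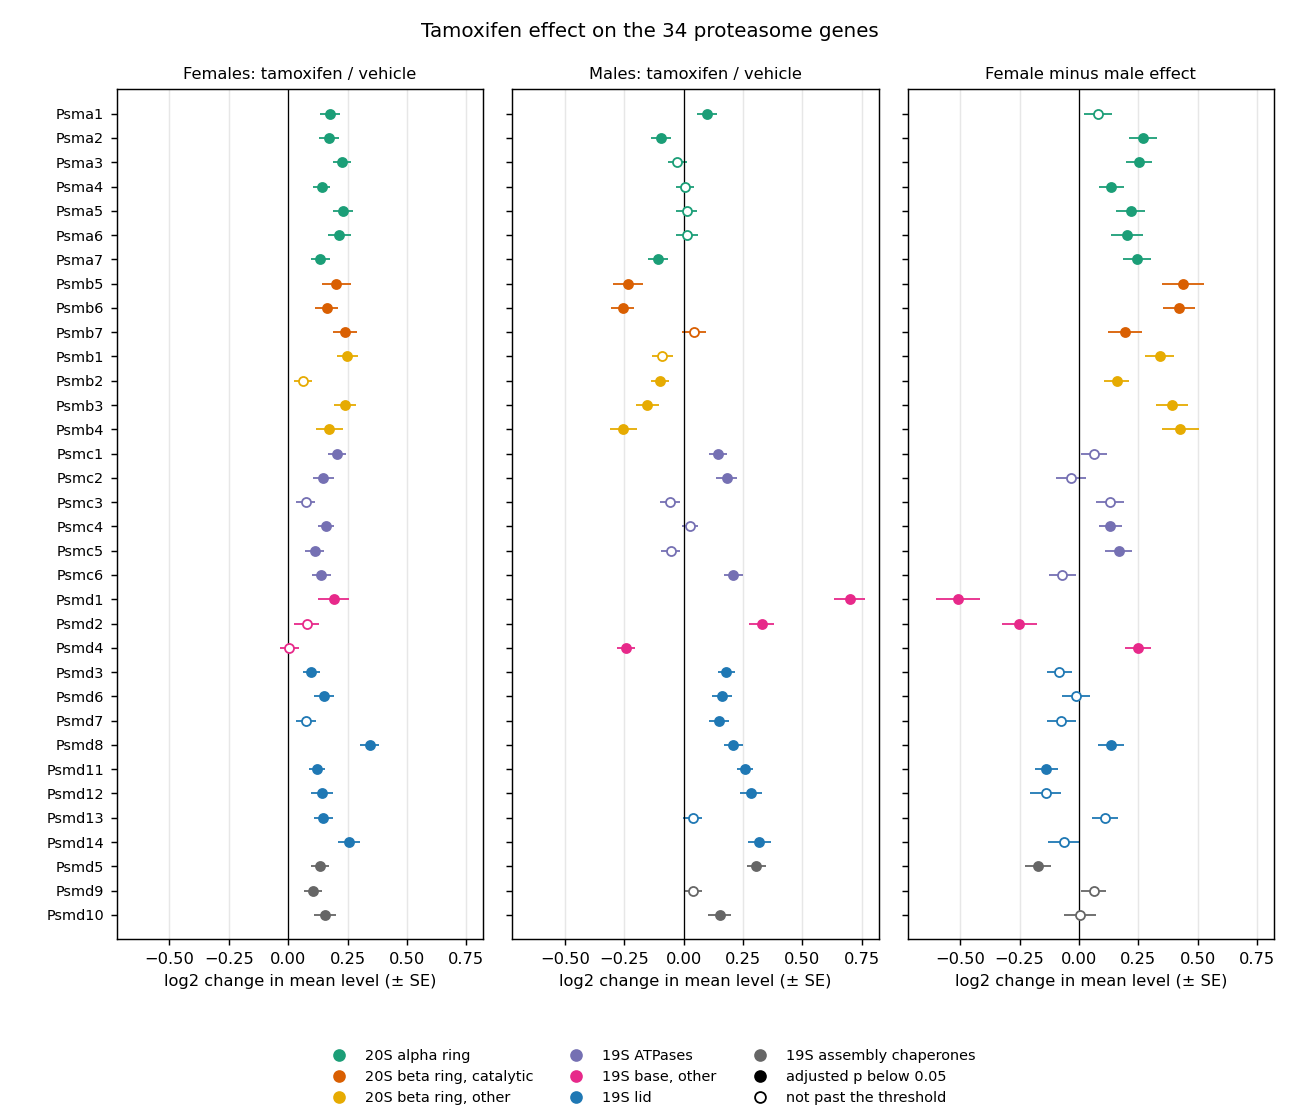
Log2 difference in mean level, tamoxifen minus vehicle, of each of the 34 genes in females and in males, and the female difference minus the male one, with the standard error as bars and filled points for genes with an adjusted p under 0.05 in edgeR's test. In females all points lie above 0, while in males those of the lid lie above 0 and those of the catalytic beta subunits Psmb5 and Psmb6 below it.

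Several libraries were high in an atrial marker, and the female result moved when they were left out. The atrial markers Myl7, Myl4, Sln and Nppa summed to a median of 126.5 CPM in tamoxifen females, against 210 CPM in vehicle females. Little of this was Myl7, an atrial light chain, with medians of 0.59 CPM and 0.91 CPM, so the summed medians are not a measure of atrial tissue. Myl7 passed 20 CPM in 1 tamoxifen female library and 7 vehicle female libraries. Without the 13 such libraries of the series, 16 members were called higher in tamoxifen females and 0 lower, with a median of 0.11, where 21.8% of genes were called: Psmd8 (0.30, adjusted p = 1.10e-07) and Psmd14 (0.23) were among them, while Psmb5 (0.12, adjusted p = 0.136) and Psmb6 (0.10, adjusted p = 0.137) were not. The part of atrial tissue in the result was not tested beyond this. At ct 18 to 38 alone 14 members were called higher, and leaving out ct 62 left 20.

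In males the same comparison gave differences in both directions. Of the 34 genes, 23 were called, 15 higher and 8 lower in tamoxifen males, where 70% of all genes tested were called, 32.2% higher and 37.8% lower, so the members' share called was near the background. Their median difference was 0.04, against -0.05 over all genes. The 15 that were higher comprised 7 of 8 lid subunits, 3 of 6 ATPases, 2 of 3 other base subunits, 2 of 3 assembly chaperones and 1 alpha subunit. The 8 that were lower were 2 of 3 catalytic subunits, 3 of 4 other beta subunits, 2 alpha subunits and Psmd4. Scaling by library size alone made the split 11 higher and 13 lower, and correcting for the length and GC content of transcripts made it 21 higher and 6 lower. The shares of all genes under either setting are not given here.

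Psmd1 (chr1:86064387-86139151, plus strand) differed most. It had 156 CPM at lowest, 180 at the median and 212 at highest in tamoxifen males, against 57.3, 111 and 169 in vehicle males (log2 difference 0.70 ± 0.07, 1.62-fold, adjusted p = 1.55e-15, edgeR). The ranges overlapped narrowly, with 21 of 24 tamoxifen libraries above the highest vehicle library. Psmd2 (chr16:20651652-20663414, plus strand), the other large scaffold of the base, had 276, 311 and 356 CPM in tamoxifen males, against 137, 265 and 323 in vehicle males (0.33 ± 0.05, adjusted p = 3.66e-08). The tamoxifen females and males had nearly the same medians, 177 and 180 CPM of Psmd1 and 311 and 311 CPM of Psmd2, and the vehicle males had the lowest values of the 4 groups.

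In the lid, Psmd14 had 57.3 CPM at lowest, 66.6 at the median and 80.1 at highest in tamoxifen males, against 32.7, 53.97 and 66.6 in vehicle males (0.32 ± 0.05, adjusted p = 8.07e-09), with 12 of 24 tamoxifen libraries above the vehicle range. Psmd12 and Psmd11, structural lid subunits, were higher by 0.28 ± 0.05 (adjusted p = 1.67e-07) and 0.26 ± 0.03 (adjusted p = 3.93e-10). Among the assembly chaperones, Psmd5 ranged from 23.4 to 32.2 CPM in tamoxifen males, against 16.1 to 28.5 CPM in vehicle males (0.31 ± 0.04, adjusted p = 6.32e-11), with 13 of 24 tamoxifen libraries above the vehicle range. Psmd10 was higher by 0.15 ± 0.05 (adjusted p = 0.00338), and Psmd9, with a difference of 0.04, was not called.

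Of the core subunits called in males, 1 was higher and 7 were lower, and after the correction for length and GC content 5 were higher (Psma1, Psma4, Psma5, Psma6 and Psmb2) and 5 lower (Psma2, Psmb1, Psmb3, Psmb4 and Psmb6). Psmb6 had 95.3 CPM at lowest, 109.7 at the median and 137 at highest in tamoxifen males, against 91.1, 138 and 184 in vehicle males (-0.26 ± 0.05, 0.84-fold, adjusted p = 2.23e-06). Psmb5 had 32.5, 41.1 and 53.3 CPM in tamoxifen males, against 30.1, 50.3 and 71.4 in vehicle males (-0.23 ± 0.06, 0.85-fold, adjusted p = 6.51e-04). For both genes the vehicle range enclosed the tamoxifen range. Psmb7, the trypsin-like subunit, had 197, 225 and 287 CPM in tamoxifen males, against 160, 229 and 289 in vehicle males, and its difference of 0.04 was not called. Psmb4, a structural beta subunit, fell by 0.25 (SE 0.06, adjusted p = 4.80e-05) and Psmd4 by 0.24 (SE 0.04, adjusted p = 1.06e-07). After the same correction, Psmb5 was not called (-0.03, adjusted p = 0.505), Psmb4 stood at -0.13 and Psmb6 at -0.11, while Psmd1 stood at 0.64.

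**Figure D2:**
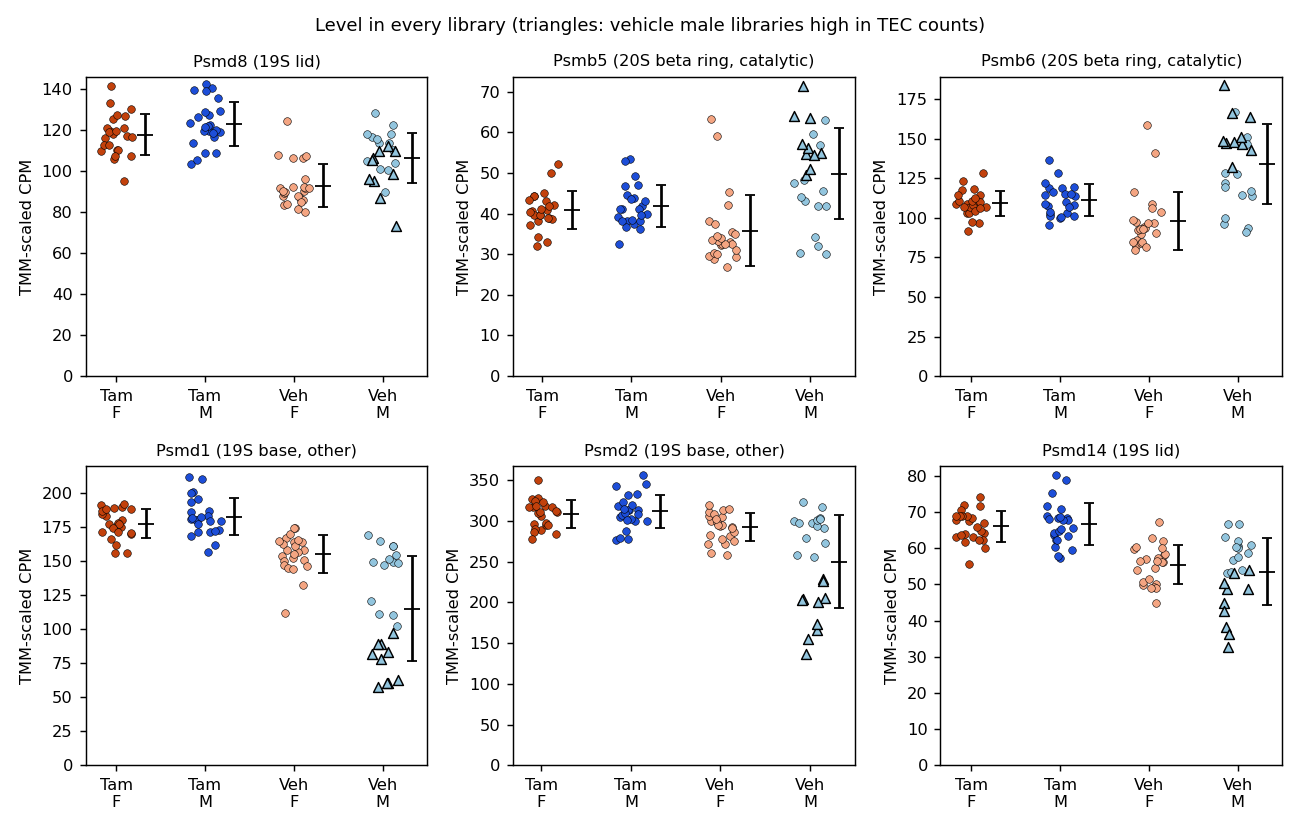
Level of 6 members in each of the 96 libraries, as CPM after TMM scaling, by group, with the group mean and SD (n = 24); triangles mark the 10 vehicle male libraries with a high share of TEC counts. In vehicle males the triangles hold the lowest values of Psmd1, 57.3 to 97.3 CPM, and lie in the upper range of Psmb5, 49.6 to 71.4 CPM.

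The vehicle male values were then read apart for the 10 libraries high in TEC counts (TEC-high) and the other 14. Psmd1 lay between 57.3 and 97.3 CPM in the 10, with a median of 80.1, against 102 to 169 CPM with a median of 150 in the 14, so the ranges did not overlap. Psmd2 lay between 137 and 229 CPM in the 10, against 256 to 323 CPM in the 14, again without overlap. The share of all genes whose ranges did not overlap between these libraries was not counted. Psmb5 and Psmb6 leaned the opposite way, with medians of 55.5 and 148 CPM in the 10, against 43.6 and 118 CPM in the 14, and their ranges overlapped. The 10 were unevenly spread over time. They held every vehicle male library at ct 30 and ct 34 and none at ct 18, ct 22, ct 46 or ct 50. The split into 10 and 14 is thus also a split by time. Any fit without the 10 has no vehicle male library at ct 30 or ct 34. Without these 10 libraries, 16 members were called, 7 higher and 9 lower in tamoxifen males, where 42.2% of genes were called. Psmd1 then differed by 0.44 (adjusted p = 5.44e-13), Psmd2 by 0.11 (adjusted p = 0.00339), Psmd14 by 0.15, Psmb6 by -0.19 (adjusted p = 0.00646) and Psmb5 by -0.17 (adjusted p = 0.07). Mitochondrial genes held 8.48% of counts on average in vehicle males, against 7.11% to 7.32% in the other groups. The endothelial, erythroid and neutrophil marker sums were highest in vehicle males, with medians of 990.5 CPM, 811.5 CPM and 2.86 CPM against at most 795 CPM, 555.3 CPM and 1.52 CPM in the other groups. The atrial (216 CPM), mural (1210 CPM) and lymphocyte (2.21 CPM) medians were also highest there. Those of cardiomyocyte, fibroblast (997 CPM, against 1155 CPM in tamoxifen females) and macrophage markers (129 CPM, against 144 CPM in vehicle females) were not. The part of these measures in the male result was not tested.

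The length of the transcript also moved with the male differences. Across the 34 genes, Spearman's rho between longest transcript and log2 difference was 0.554 in males and -0.16 in females, against 0.233 and -0.162 over all genes tested, as a description of genes that share their libraries. After the correction for length and GC content, the members' rho in males was 0.236.

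Between the sexes of tamoxifen hearts, 1 of 34 genes was called, where 7.68% of all genes were (4.08% higher and 3.6% lower in females), and 3 had an unadjusted p under 0.05. It was Psmd3 (chr11:98682554-98695979, plus strand), a lid subunit, with 96.8 CPM at lowest, 122 at the median and 139 at highest in tamoxifen females, against 115, 136 and 144 in tamoxifen males (-0.12 ± 0.04, 0.92-fold, adjusted p = 0.0175). The ranges overlapped widely, and leaving out a time in turn gave 0 to 2 called members. The median difference of the 34 was -0.03.

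Between the sexes of vehicle hearts, 25 genes were called, 4 higher and 21 lower in females, where 68.3% of all genes were called, 31.8% higher and 36.5% lower. All 3 catalytic subunits, all 4 other beta subunits, 6 of 7 alpha subunits and 4 of 6 ATPases were lower in vehicle females. Psmb5 had 26.8, 33.1 and 63.4 CPM (lowest, median, highest) in vehicle females, against 30.1, 50.3 and 71.4 in vehicle males (-0.47 ± 0.06, 0.72-fold, adjusted p = 4.33e-10). Psmb6 differed by -0.45 ± 0.05 (adjusted p = 5.37e-13) and Psmb7 by -0.20, and Psmb4, Psmb3 and Psmb1 by -0.44, -0.39 and -0.38. For Psmb1, 18 of 24 vehicle female libraries were below the lowest vehicle male library, and for Psma3 (-0.28) 19 of 24 were. The members higher in vehicle females were Psmd1 (0.46 ± 0.07, adjusted p = 2.99e-09), Psmd2 (0.23, adjusted p = 4.16e-05), Psmd5 (0.19) and Psmd11 (0.10). Psmd9 differed by -0.14, and Psmd10, with 0.02, was not called. Correcting for length and GC content brought Psmb5 to -0.22, Psmb6 to -0.24, Psmb4 to -0.27 and Psmb3 to -0.28, left Psmd5 (0.08) uncalled, and made the split 10 higher and 16 lower; without the 10 libraries high in TEC counts it was 1 higher (Psmd1, 0.22) and 27 lower, where 46.7% of genes were called.

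**Figure D3:**
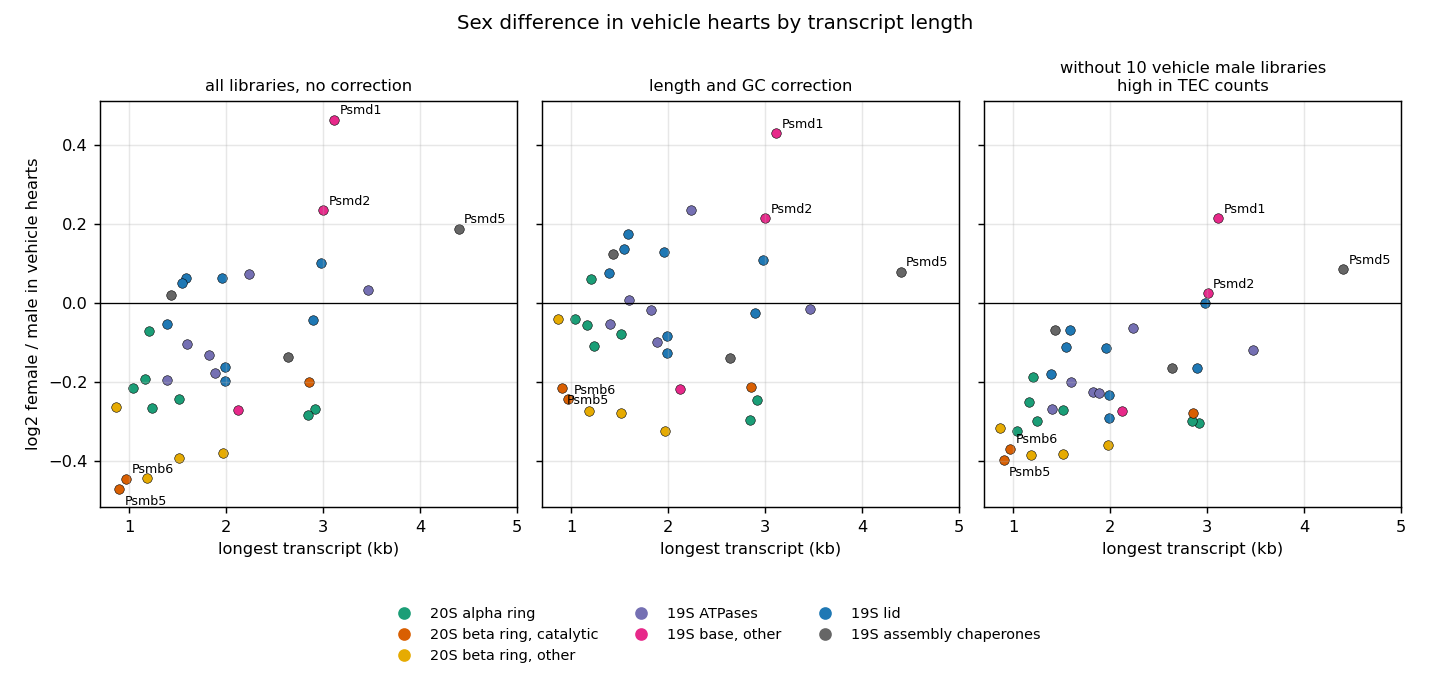
Log2 difference in mean level, vehicle females minus vehicle males, of each of the 34 genes against its longest transcript in kb, from all libraries, after a correction for length and GC content, and without the 10 TEC-high libraries of vehicle males. Spearman's rho is 0.512 in the first panel and 0.205 after the correction, and all 7 beta subunits lie below 0 in all 3 panels.

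The tamoxifen difference itself was compared between the sexes as an interaction, which uses both vehicle groups. For 21 genes the female difference departed from the male one (52.3% of all genes did so), 17 with a larger value in females and 4 with a larger value in males, against 27% and 25.4% of all genes. Those 4 were Psmd1 (-0.51, adjusted p = 6.76e-06), Psmd2 (-0.25), Psmd5 (-0.17) and Psmd11 (-0.14). The other 17 included all 7 beta subunits, among them Psmb5 (0.44, adjusted p = 3.37e-05), Psmb4 (0.43), Psmb6 (0.42, adjusted p = 8.98e-07), Psmb3 (0.39, adjusted p = 2.88e-06) and Psmb1 (0.34, adjusted p = 6.85e-06). The chaperones Psmd9 and Psmd10 were not called. With the correction for length and GC content Psmb5 was 0.20, Psmb4 0.27, Psmb6 0.23 and Psmb3 0.29, and 10 members were larger in females and 9 in males; at ct 18 to 38 the split was 6 and 6, and without the 10 vehicle male libraries it was 21 and 1.

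Rhythms over 24 h were then tested in each group by a cosine fit. In vehicle females 22 members were called rhythmic, where 34.5% of all genes were, and in vehicle males 15 were, where 55.2% of all genes were. In tamoxifen females and tamoxifen males 0 members were called, where 17.1% and 8.03% of all genes were; 0 had an unadjusted p under 0.05 in either group, and DESeq2 also called 0. The largest amplitude of a member was 0.09 on the log2 scale in tamoxifen females (lowest adjusted p 0.261) and 0.10 in tamoxifen males (lowest adjusted p 0.248). In simulated data for vehicle females, the test called 19% of rhythms with an amplitude of 0.15. Those genes were drawn at random and not matched to the members, so 19% is not a rate for the members. In the real vehicle females, called members had amplitudes down to 0.11. Small rhythms can still go uncalled. The median amplitude of the 34 was 0.04 in each tamoxifen group, 0.14 in vehicle females and 0.10 in vehicle males, against 0.12, 0.10, 0.15 and 0.20 over all genes tested in tamoxifen females, tamoxifen males, vehicle females and vehicle males.

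In vehicle females the called members peaked between ct 13.8 and ct 17.1 and included all 7 beta subunits, 6 alpha subunits, 4 ATPases and 4 lid subunits. Psmb5 had the largest amplitude, 0.27 ± 0.06 (peak ct 16.96, 1.46-fold between peak and trough, adjusted p = 0.00145), followed by Psmb4 (0.22), Psmb1 (0.22, adjusted p = 2.80e-04), Psmb6 (0.21), Psmb3 (0.21) and Psmb7 (0.20). This rhythm rested on neighbouring times of the series. The 2 libraries at ct 42 had 59.0 and 63.4 CPM of Psmb5 and those at ct 38 had 38.3 and 42.1 CPM, whereas ct 18, a day before ct 42, had 32.2 and 32.97 CPM. Both of the ct 18 libraries, and none at ct 38 or ct 42, were among those over 20 CPM of Myl7. Over the 34 genes, the mean log2 CPM in vehicle females was 6.81 at ct 42 and 6.69 at ct 38, and 6.54 or lower at the other 10 times. Without ct 42, 4 members were called in vehicle females, without ct 38 and ct 42 (chosen after seeing the data) 0 were, and at ct 18 to 38 alone 0 were. The shares of all genes called in these settings are not given here.

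In vehicle males the called members peaked between ct 9.87 and ct 22.6, in an early and a late set. Psmd1 had the largest amplitude, 0.43 ± 0.07 (peak ct 22.1, 1.81-fold between peak and trough, adjusted p = 1.07e-06). Its 2 libraries had 161 and 169 CPM at ct 18, against 60.3 and 78.1 at ct 34 and 57.3 and 150 at ct 42. The libraries at ct 42 and at ct 26 (60.1 and 154 CPM) were far apart, the low library of each time being high in TEC counts. Both libraries at ct 34 were high in TEC counts, and both at ct 18 were over 20 CPM of Myl7. Psmb5 (0.32, peak ct 10.3, adjusted p = 5.33e-05), Psmb6 (0.28, peak ct 10.47), Psmb4 (0.27, peak ct 9.87), Psmd4 (0.25, peak ct 11.2) and Psmb1 (0.23, peak ct 10.996) peaked on the opposite side of the day from Psmd1, Psmd2 (0.22, peak ct 21.9) and Psmd5 (0.17, peak ct 22.6). Psmb5 in vehicle males was 30.1 and 30.3 CPM at ct 18, against 63.6 and 64.0 at ct 34, in the same libraries. A day later it was 41.9 and 56.2 CPM at ct 42, against 54.9 and 59.5 at ct 58. Its range over the times was wider in the first cycle than in the second. Over the 34 genes, 24 members were called at ct 18 to 38 and 4 at ct 42 to 62. Without the 10 libraries high in TEC counts 9 members were called. That fit has no vehicle male library at ct 30 or ct 34, so it rests on an uneven time course. For these settings the shares of all genes called are not given here.

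Rhythms were called in both vehicle groups for 12 members, and their peaks lay between ct 14.4 and ct 17.1 in females and between ct 9.87 and ct 12.2 in males. Of all genes tested, 34.5% were called rhythmic in vehicle females and 55.2% in vehicle males. The share of all genes called in both groups was not counted. The difference in phase between the sexes was not tested. The difference in rhythm between tamoxifen and vehicle hearts was tested within each sex. In females 0 members were called by edgeR, where 0.237% of all genes were called; 14 had an unadjusted p under 0.05, and DESeq2 called 0. In males 6 were called, where 20.7% of all genes were: Psmd1 (difference of the rhythm vectors 0.42, adjusted p = 0.00371), Psmb5 (0.34, adjusted p = 0.0121), Psmb6 (0.29, adjusted p = 0.00557), Psmb1 (0.23, adjusted p = 0.0169), Psmd4 (0.18, adjusted p = 0.037) and Psma7 (0.18, adjusted p = 0.0479). Without the 10 vehicle male libraries, and so without any at ct 30 and ct 34, 1 was called. In tamoxifen males, Psmb5 stayed between 36.8 and 46.1 CPM in its means at all 12 times, against 30.2 to 67.2 CPM in vehicle males.

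**Figure D4:**
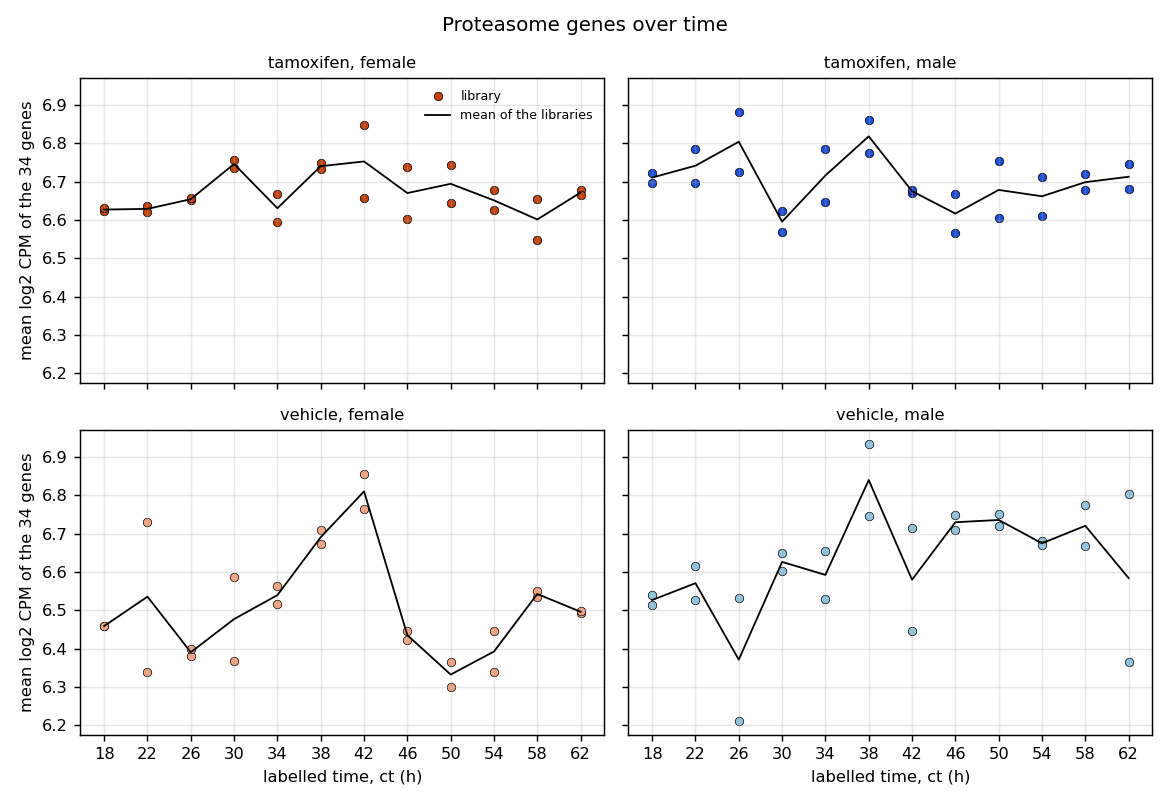
Mean log2 CPM of the 34 genes in each library against circadian time in hours, in 4 panels by group, with the mean of each pair of libraries joined by a line. The vehicle female libraries at ct 42 reach 6.76 and 6.86, above the vehicle female libraries at the other times, and the tamoxifen groups vary less.

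**Figure D5:**
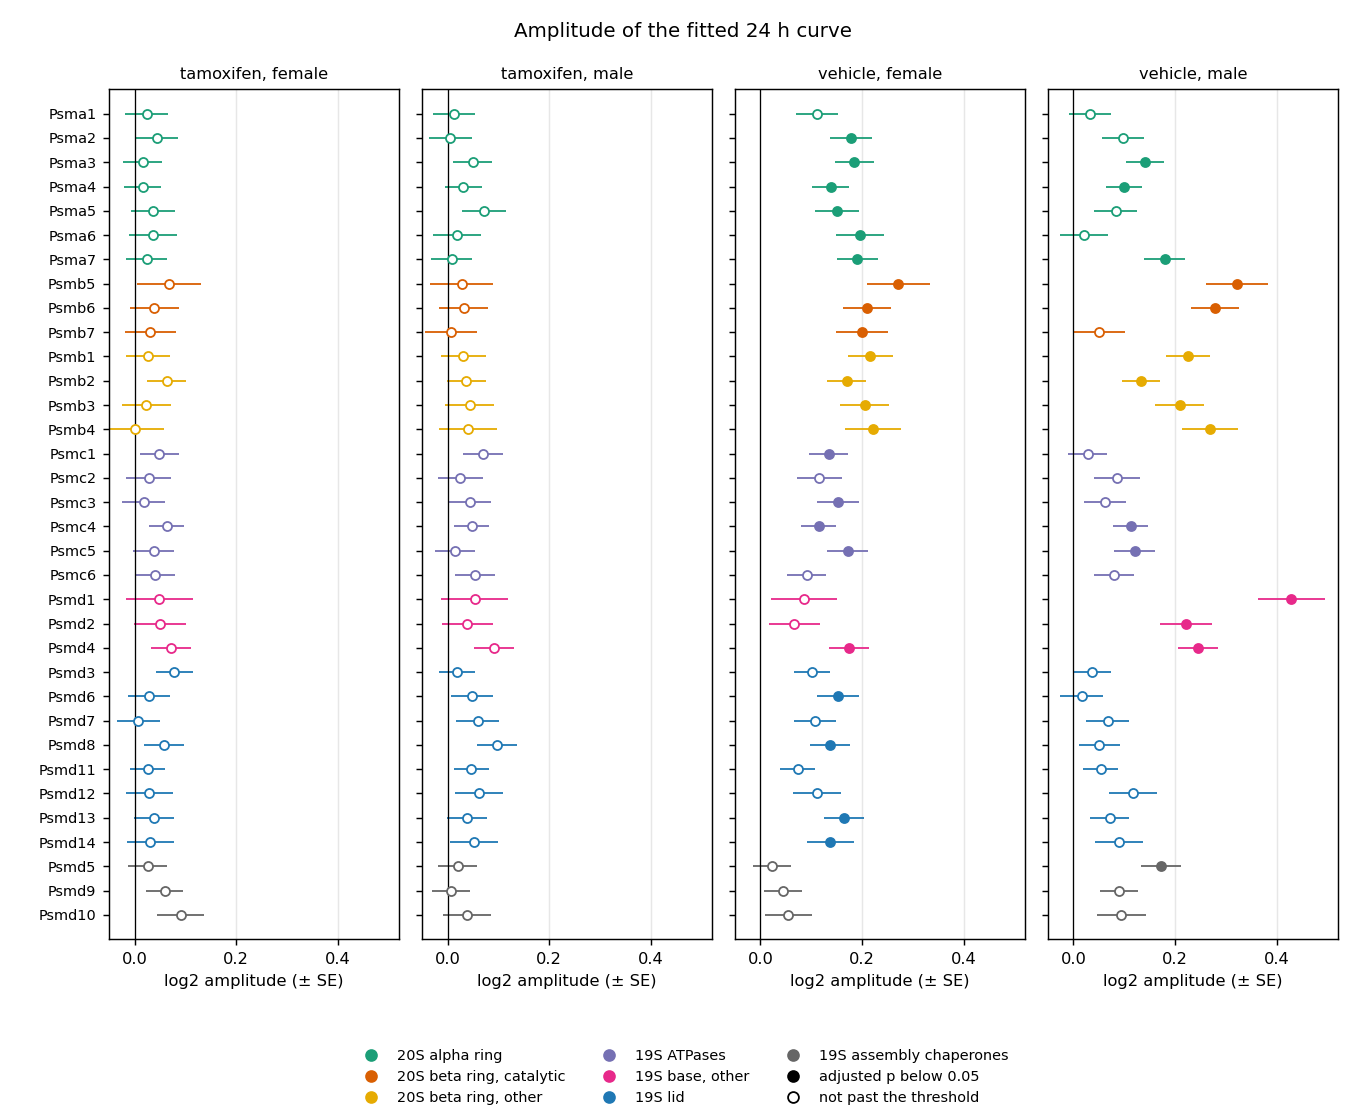
Amplitude of the 24 h cosine fit on the log2 scale for each of the 34 genes in the 4 groups, with filled points for genes with an adjusted p under 0.05 in edgeR's test. No point is filled in the tamoxifen groups, where the largest amplitudes are 0.09 and 0.10, against 0.27 in vehicle females and 0.43 in vehicle males.

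Genes around the constitutive particle were read from lists of the same pathway, to be set against 32.2% of all genes called higher and 37.8% lower in tamoxifen males, and 15.2% and 12.3% in tamoxifen females. Of the 5 immunoproteasome genes, the inducible catalytic subunits and their activator, 4 were lower and 0 higher in tamoxifen males, with Psmb10 at -0.49, Psmb8 at -0.47, Psmb9 at -0.41 and Psme2 at -0.33. In tamoxifen females 1 was higher (Psmb9, 0.33, adjusted p = 0.0133) and 1 lower. Of the 5 chaperones that assist the assembly of the 20S core, 1 was higher in tamoxifen females (Pomp, 0.14). All 5 were lower in tamoxifen males, Psmg3 by -0.37 and Psmg4 by -0.32. After the correction for length and GC content, 2 of the 5 were called lower, Psmg4 was not called (-0.06, adjusted p = 0.347), Psmg3 stood at -0.40 and Psme2 at -0.17.

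The lists that follow act on the cap or upstream of it. The 3 other activators and inhibitors were higher in tamoxifen males, with Psme3 at 0.42 and Psme4 at 0.38, and 0 were called in females. Of 6 genes of proteins bound to the cap, mainly ubiquitin receptors and ubiquitin-processing enzymes, 4 were higher and 2 lower in tamoxifen males, with Ube3c, a ubiquitin ligase, at 0.75, Usp14 at 0.39 and Sem1, a small lid subunit, at -0.48, and 0 were called in females. Of 9 genes on the NRF1 route, 4 were higher in tamoxifen males, among them Nfe2l1 itself (0.55) and Sel1l (0.37), and 0 were lower; the share called, 4 of 9, was below the 70% of all genes. In females 0 were higher and 1 was lower, and Nfe2l1 had a difference of 0.10 that was not called. Of 9 genes of VCP, the unfoldase that extracts ubiquitin-tagged proteins, and its shuttle factors, 8 were higher in tamoxifen males (Nploc4 0.53, Vcp 0.47, Rad23b 0.38, Ufd1 0.37) and 3 in tamoxifen females, where 1 was lower. Of 6 ubiquitin genes and the ubiquitin-activating enzyme, 2 were higher and 2 lower in tamoxifen males, with Uba1 at 0.43 and Rps27a, a fusion of ubiquitin and a ribosomal protein, at -0.51; in females 2 were higher and 1 lower. Psmb9 apart, the genes named in females fall outside the rule of size for these lists and were named after their values were seen. The male differences share the vehicle male libraries with those of the 34 genes.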

How the data were processed

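Raw counts per gene, deposited by the authors without normalization for 96 ventricle libraries, were used as they stand; the submitters' processing notes name HISAT2, Picard and HTSeq and the builds GRCm38 and mm10, and the tools' versions were not stated there. Isoforms are not separated, and RNA without a tail is mostly missing. Symbols were matched to GENCODE M21. Groups, sex and times came from the titles, and 0 columns were left unmapped. Genes were filtered with filterByExpr (minimum count 10), which left 15629, and scaled by TMM. edgeR 4.0.16 in R 4.3.3 fitted group means and a 24 h cosine and sine per group over all 96 libraries (84 residual degrees of freedom), with quasi-likelihood tests and Benjamini-Hochberg adjusted p over all genes tested. The test was tried on simulated data, with changed genes drawn at random and not matched to the members. Of genes changed by 0.3 (log2) between the female groups, 90% were called, and of those changed by 0.15, 40%. Of rhythms simulated in vehicle females, 80% with a log2 amplitude of 0.3 were called and 19% with one of 0.15. Levels are CPM after TMM scaling, except marker sums, Myl7 and the Xist, Ddx3y, Per2 and single-library Arntl values, which are CPM without it. The 26 rows whose symbols had turned into dates held 0.135% of counts and are named nowhere. Alternatives were DESeq2 1.42.0 (test, and size factors), library size scaling, no filter, a correction for length and GC content, each cycle alone, time as a factor, a term for a second series of title numbers, leaving out each time, and leaving out libraries that stood apart. The 34 members, the pathway lists and the rules were chosen with earlier results of these data known. Up to 8 called members with the largest difference per mean comparison, 6 per rhythm, the catalytic subunits and the base chaperones are given in full, and pathway genes from an absolute log2 difference of 0.3.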

Additional observations from a re-analysis of the deposited data

Results flagged for a closer look

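The tamoxifen effect (tamoxifen minus vehicle) differed between the sexes for 21 members by the interaction test in edgeR, given here as the female minus the male log2 difference. In the alpha ring the values were 0.27 for Psma2, 0.25 for Psma3, 0.14 for Psma4, 0.22 for Psma5, 0.20 for Psma6 and 0.24 for Psma7. In the beta rings they were 0.34 for Psmb1, 0.16 for Psmb2, 0.39 for Psmb3, 0.43 for Psmb4, 0.44 for Psmb5, 0.42 for Psmb6 and 0.19 for Psmb7. In the base they were 0.13 for Psmc4, 0.17 for Psmc5, 0.25 for Psmd4, -0.51 for Psmd1 and -0.25 for Psmd2, and Psmd5, an assembly chaperone of the base, had -0.17. In the lid they were 0.13 for Psmd8 and -0.14 for Psmd11. The interaction was called for 52.3% of all genes tested. The 10 TEC-high libraries of vehicle males enter each of these values, and without them 21 members had a larger value in females and 1 in males.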

How the results depend on the processing

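No paired analysis was possible because the labels give the groups no shared replicate numbers. Counts below are of the 34 members called, without the shares of all genes called in the same settings. Above, member counts in an alternative setting have such a share beside them only where one is printed. Leaving out each time in turn gave 20 to 29 for the female tamoxifen effect, 20 to 24 for the male one, 0 to 2 for sex in tamoxifen hearts, 24 to 26 for sex in vehicle hearts, 16 to 23 for the interaction, 0 to 0 for the rhythm in either tamoxifen group, 4 to 24 for the rhythm in vehicle females, 11 to 17 for that in vehicle males, and 0 to 0 and 2 to 9 for the difference in rhythm in females and males. With ct 18 to 38 alone the counts were 14 for the female tamoxifen effect, 0 for sex in tamoxifen hearts, 12 for the interaction, 0 and 24 for the rhythm in vehicle females and vehicle males, and 15 for the male difference in rhythm. With ct 42 to 62 alone they were 0 for sex in tamoxifen hearts, 4 for the rhythm in vehicle males and 0 for the male difference in rhythm. Without the 10 TEC-high libraries of vehicle males they were 3 for sex in tamoxifen hearts, 1 for the rhythm in tamoxifen females, 9 for that in vehicle males and 1 for the male difference in rhythm. This setting has no vehicle male library at ct 30 or ct 34. Without libraries high in Myl7 they were 16 for the female tamoxifen effect, 2 for sex in tamoxifen hearts and 5 for the female difference in rhythm. The length and GC correction gave 3 for sex in tamoxifen hearts and 1 for the female difference in rhythm; no filter gave 0 for sex in tamoxifen hearts and 3 for the male difference in rhythm; library size alone gave 1 for the rhythm in tamoxifen females and 10 for the male difference in rhythm; time as a factor and the term for title numbers each gave 2 for sex in tamoxifen hearts; and leaving out ct 38 and ct 42, chosen after seeing the data, gave 0 for the rhythm in vehicle females. The members' median male tamoxifen effect turned negative with library size alone (-0.045), ct 42 to 62 (-0.033) and without the 10 TEC-high libraries (-0.031), and the median sex difference in tamoxifen hearts was 0.011 at ct 42 to 62. Single members changed sign as follows. In the male tamoxifen effect, Psma4 was -0.079 with library size alone, Psma7 0.013 and Psmb2 0.071 with the length and GC correction, and Psma1 -0.031 without the 10 TEC-high libraries. Between the sexes of vehicle hearts, Psma1 was 0.0598, Psmc1 0.0068 and Psmd6 0.077 with the correction, and Psmc2 was -0.12, Psmd12 -0.11 and Psmd14 -0.11 without those libraries. In the interaction, Psma4 was -0.013, Psmb2 -0.056 and Psmd10 -0.12 with the correction, and Psmd8 was -0.014 at ct 18 to 38. The DESeq2 test called 29, 23, 25 and 21 members for the tamoxifen effect in females and in males, sex in vehicle hearts and the interaction. Causes of these changes were not tested.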
